A study of Mus musculus with 15 samples.

Results

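The amino acid stress response controlled by the transcription factor ATF4 was followed through 39 genes given by symbol: ATF4 itself, the factors that act with it, enzymes of serine, glycine, proline and other amino acid metabolism, amino acid transporters and stress effectors. Of these, 38 were matched to 1 probe set each among the 18784 genes named on the arrays, and Pycr1 was not matched. Expression had been measured on 15 Affymetrix arrays of E14TG2a.4 cells at passage 17, a mouse embryonic stem cell line grown on gelatin without feeder cells and with leukaemia inhibitory factor. All cells of every group, scrambled controls included, carried a short hairpin RNA (shRNA) delivered by a lentivirus built on the pLKO.1 plasmid, and had been selected with puromycin at 2 µg per ml for 72 hours beginning 36 hours after transduction. The Tet1 set held Tet1 shRNA 5, Tet1 shRNA 4 and a scrambled hairpin, and the Sin3A set held a single Sin3A shRNA and its own scrambled hairpin, each of the 5 groups being measured on 3 arrays. TET1 is an enzyme that oxidises methylcytosine, and SIN3A is the scaffold of a histone deacetylase complex. Both hairpin designs reduce a transcript without deleting the gene, all cells came from 1 line, and whether the replicates of a group were separate cultures is not stated. The p-values therefore cover the array-to-array spread alone, and that spread may be technical.

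When amino acids run short, the endoplasmic reticulum is overloaded or a virus is sensed, stress kinases phosphorylate the translation factor eIF2, which slows protein synthesis overall and favours translation of the Atf4 messenger RNA. ATF4 then pairs with C/EBP proteins on short composite sites in the DNA and raises genes that make, import or spare amino acids. Embryonic stem cells divide fast and draw on serine, glycine and one-carbon units. How active the response was in the cells measured here, all transduced and selected with puromycin, was not tested.

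A composite site is commonly written TGATGNAA, or TTNCATCA on the opposite strand. This 8-letter motif was looked for on both strands in the 250 bases before the transcription start, in promoter windows from RefSeq (GRCm38.p6). It was found in 10 of the 33 members with a window in that table (30.3%), against 1056 of all 27025 genes (3.91%). Counted by window, it was in 10 of 41 member windows (24.4%) and in 1134 of all 32851 windows (3.45%), and 6 members had several windows. The stretches below are those of members whose values are described in what follows, and the capitals mark the motif.
Chac1: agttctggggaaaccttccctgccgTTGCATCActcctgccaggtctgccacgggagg
Nupr1: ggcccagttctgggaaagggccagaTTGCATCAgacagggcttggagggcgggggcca
Pck2: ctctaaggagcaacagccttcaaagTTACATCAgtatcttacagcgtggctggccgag
Herpud1: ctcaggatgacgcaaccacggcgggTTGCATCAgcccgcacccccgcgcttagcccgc
Slc7a11: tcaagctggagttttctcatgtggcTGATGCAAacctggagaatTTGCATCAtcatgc
Asns: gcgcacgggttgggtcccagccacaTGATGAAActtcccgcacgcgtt
Atf3: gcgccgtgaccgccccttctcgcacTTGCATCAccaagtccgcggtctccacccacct
Got1: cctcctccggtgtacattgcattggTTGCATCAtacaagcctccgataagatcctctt
They lie at chr2:119351024-119351081 on the plus strand (Chac1), chr7:126625548-126625605 on the minus strand (Nupr1), chr14:55540138-55540195 on the plus strand (Pck2), chr8:94386292-94386349 on the plus strand (Herpud1), chr3:50443647-50443704 on the minus strand (Slc7a11), chr6:7693210-7693257 on the minus strand (Asns), chr1:191183411-191183468 on the minus strand (Atf3) and chr19:43524675-43524732 on the minus strand (Got1). Each is printed along the strand of its gene. The Slc7a11 stretch holds the motif in both orientations. Jdp2 and Vldlr also held the motif. A match describes letters in a window and does not show that a factor was bound there.

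The values were log2 levels, given here as deposited, and a level is compared between groups of 1 set for the same probe set, never between genes. Replicate arrays of a group correlated at r = 0.994 to 0.998 over 21212 probe sets. The Tet1 set had column means of 7.08 to 7.11 and the Sin3A set of 8.09, so levels were not compared across sets. Replicate 2 of Tet1 shRNA 4 and replicate 2 of the scrambled group deviated from their groups in a like way (r = 0.517 between the deviations), and counts without both arrays are given below. The Tet1 probe set had a log2 difference from scrambled of -2.10 with Tet1 shRNA 5 and -1.78 with Tet1 shRNA 4, and the Sin3a probe set one of -1.55 with the Sin3A shRNA. The 9 markers of embryonic stem cells (Pou5f1, Nanog, Sox2 and others) all lay at or above percentile 80.7 of probe sets in the Tet1 set. A gene was called higher or lower when limma's adjusted p, computed over all probe sets, was under 0.05. In bulk RNA of this kind, fewer cells of one state and less RNA per cell cannot be told apart.

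Of the response genes that were called, nearly all were lower with Tet1 shRNA 5 and all were lower with the Sin3A shRNA, while those called with Tet1 shRNA 4 split in direction. Tet1 shRNA 5 lowered 14 of 38 members (36.8%) and raised 2 (5.26%), while 5.46% of all probe sets were called lower and 8.37% higher. Tet1 shRNA 4 lowered 3 (7.89%) and raised 4 (10.5%), against 4.71% and 6.88% of all probe sets. The balance with Tet1 shRNA 4 depended on the setting: 5 were lower and 4 higher after repeated quantile normalization, after median centring and with a trended, robust prior, and 7 lower and 4 higher among probe sets above the median level. The Sin3A shRNA lowered 18 (47.4%) and raised none, against 12.6% and 12.2% of all probe sets, with 1 member higher at an unadjusted p under 0.05. In either direction, 13.8% of all probe sets were called with Tet1 shRNA 5, 11.6% with Tet1 shRNA 4 and 24.8% with the Sin3A shRNA. Of the 38 members, 33 lay above the median probe set in the Tet1 set and 32 in the Sin3A set. The shares of all probe sets include the dim ones, and shares over bright probe sets alone are not given here. The Tet1 shRNA 4 numbers changed when the replicate number was a block and only the 2 groups entered the fit: 4 members were lower (Gpt2, Slc1a4, Chac1 and Trib3, adjusted p = 0.0413 for Trib3) and 2 higher (Asns and Slc7a1), and Slc7a3 (adjusted p = 0.0527) and Slc7a5 (0.0732) no longer passed. The median difference of the 38 members was -0.16 with Tet1 shRNA 5, 0.00 with Tet1 shRNA 4 and -0.18 with the Sin3A shRNA, where the median of all probe sets was 0.00, 0.00 and 0.01. Both Tet1 hairpins were set against the same 3 scrambled arrays. Of the 38 members, 24 were called in at least 1 of the 4 comparisons within a set (the 3 knockdowns each set against scrambled, and the contrast of the hairpins), and 14 in none of these: Atf5, Ddit3, Cebpb, Cebpg, Jdp2, Psph, Cth, Cbs, Got1, Slc3a2, Slc1a5, Ppp1r15a, Eif4ebp1 and Vldlr.

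The mean log2 level over the 38 members was 8.96, 8.94 and 9.0 in the Tet1 shRNA 5 arrays, 9.22, 9.20 and 9.14 in the Tet1 shRNA 4 arrays and 9.18, 9.23 and 9.24 in the scrambled arrays. All 3 shRNA 5 arrays lay below the other 6, and shRNA 4 overlapped the scrambled arrays. In the Sin3A set this mean was 9.66, 9.66 and 9.65 in the Sin3A shRNA arrays and 9.90, 9.92 and 9.85 in the scrambled arrays, with no overlap. Group by group, all 3 Tet1 shRNA 5 arrays lay below all 3 scrambled arrays in 22 members and above them in 5, against 11.9% and 17% of all probe sets. For Tet1 shRNA 4 this held in 10 and 6 members, against 10.9% and 14.1% of all probe sets, and for the Sin3A shRNA in 21 and 4, against 20.1% and 20.4%. The 14 members lowered by Tet1 shRNA 5 had differences of -1.31 to -0.21 with a median of -0.58, and 1 of them reached a factor of 2.

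**Figure D1:**
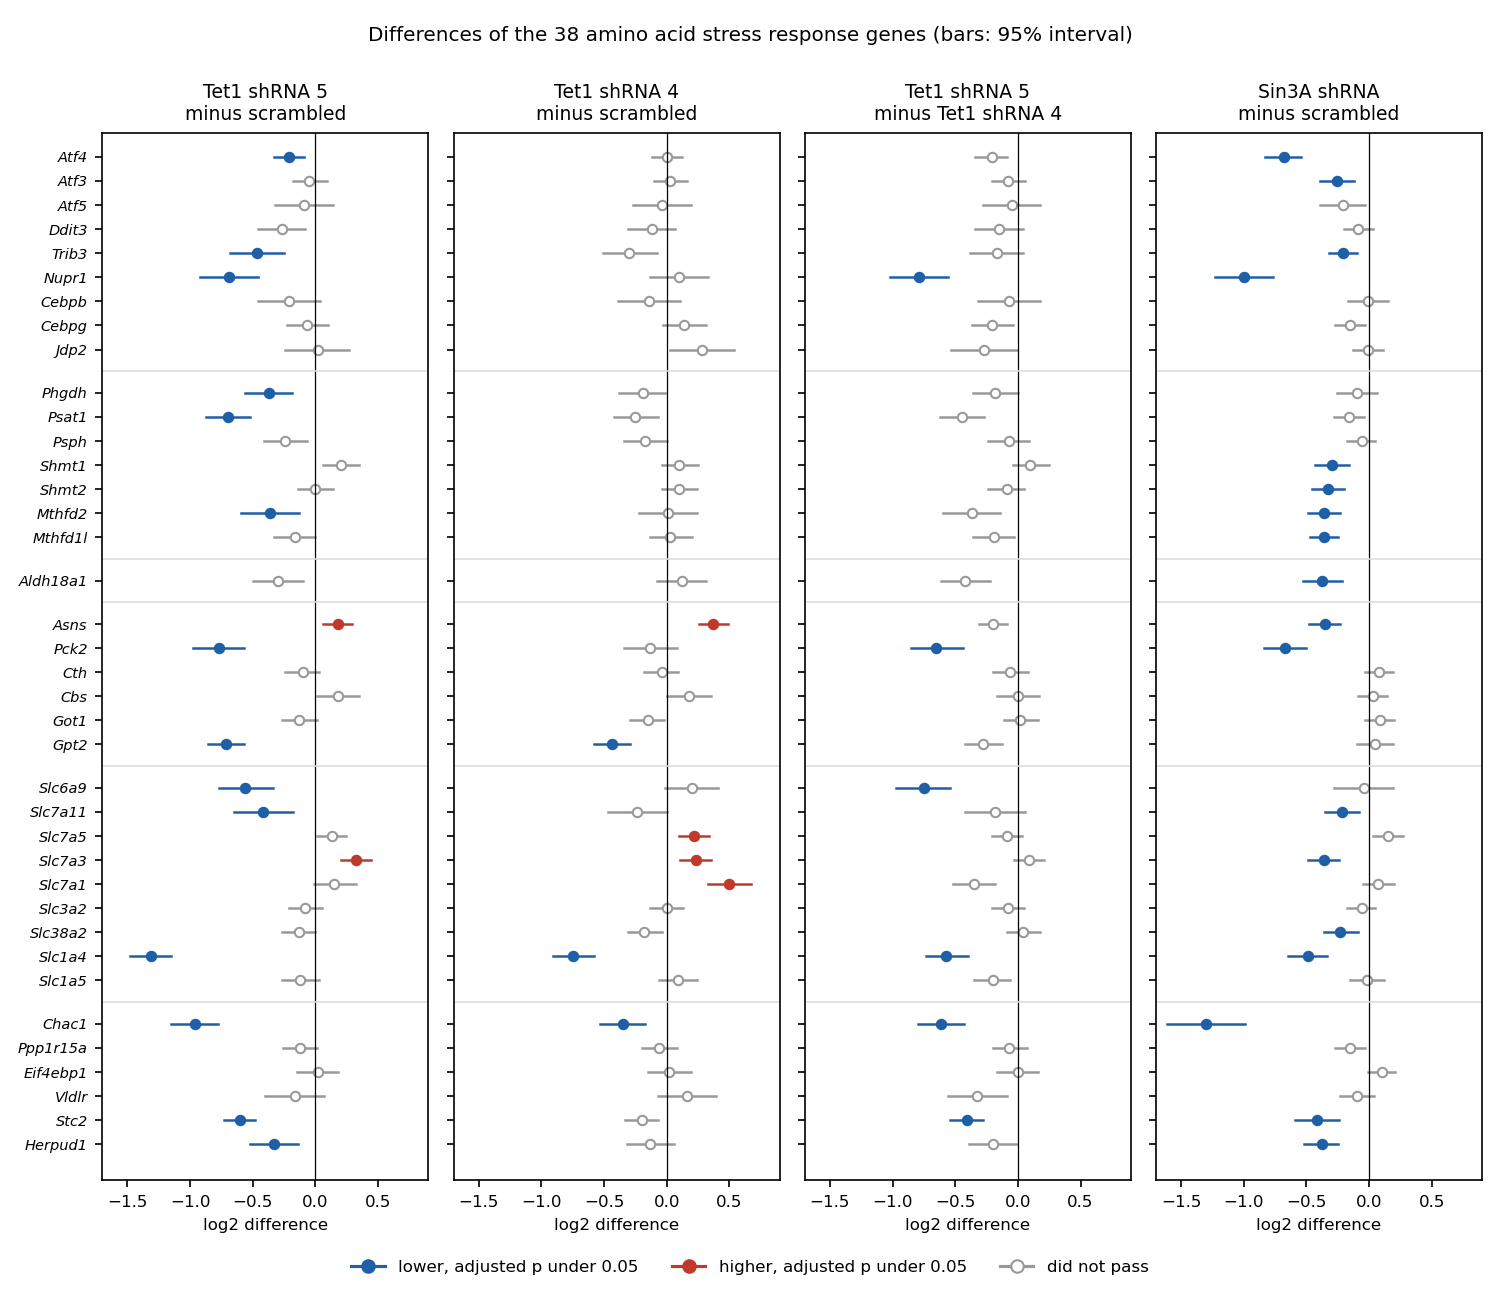
Log2 difference of each of the 38 members in 4 comparisons, with members grouped by role down the page: factors, serine and one-carbon enzymes, proline synthesis, other amino acid enzymes, transporters and other effectors. Points are limma estimates and bars their 95% intervals. Blue points were called lower, red points higher, and open points did not pass. The Tet1 shRNA 5 panel holds 14 blue points, the Tet1 shRNA 4 panel 3, the panel of the contrast between the hairpins 6 and the Sin3A panel 18.

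Among the 9 regulatory factors, Tet1 shRNA 5 lowered 3, Tet1 shRNA 4 none and the Sin3A shRNA 4, and none was called higher. In the same order, 5.46%, 4.71% and 12.6% of all probe sets were called lower, and 8.37%, 6.88% and 12.2% higher. These shares also stand beside the counts of the role groups that follow. In groups this small, a count of none lies near such shares. With Tet1 shRNA 4, limma gave an unadjusted p under 0.05 for 2 of the 9. Atf4 itself had log2 levels of 7.99, 8.01 and 8.09 with Tet1 shRNA 5, 8.24, 8.26 and 8.24 with Tet1 shRNA 4 and 8.21, 8.25 and 8.27 with the scrambled hairpin. The shRNA 5 arrays lay below all others, and shRNA 4 could not be separated from scrambled. The difference was -0.21 ± 0.05 with shRNA 5 (SE, limma adjusted p = 0.028) and 0.00 ± 0.05 with shRNA 4 (adjusted p = 0.99). In the Sin3A set, Atf4 had 8.28, 8.22 and 8.31 with the Sin3A shRNA and 8.93, 9.06 and 8.87 with scrambled. This was a drop of 1.61-fold (-0.68 ± 0.06, SE, limma adjusted p = 0.00031). ATF4 is regulated mainly through translation, which the arrays did not measure. The shRNA 5 call for Atf4 was lost without scrambled replicate 3 (adjusted p = 0.094), Tet1 shRNA 5 replicate 1 (0.1) or Tet1 shRNA 5 replicate 2 (0.096).

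Nupr1, a small nuclear stress protein whose promoter stretch is printed above, showed the clearest split between the Tet1 hairpins among the factors. Its log2 level was 7.05, 7.12 and 7.36 with Tet1 shRNA 5, 8.0, 7.84 and 8.07 with Tet1 shRNA 4 and 7.71, 7.96 and 7.93 with scrambled. The shRNA 5 arrays lay below both other groups, which overlapped. The difference from scrambled was -0.69 ± 0.10 with shRNA 5 (SE, limma adjusted p = 0.0018) and 0.10 ± 0.10 with shRNA 4 (adjusted p = 0.63). With the Sin3A shRNA it had 7.94, 7.71 and 7.62, against 8.82, 8.85 and 8.61 with scrambled, a difference of -1.0 ± 0.10 (SE, limma adjusted p = 0.00039).

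Trib3, a pseudokinase that restrains ATF4 in a feedback loop, had 7.31, 7.27 and 7.57 with Tet1 shRNA 5, 7.57, 7.62 and 7.47 with Tet1 shRNA 4 and 7.74, 7.99 and 7.82 with scrambled. All 6 knockdown arrays lay below the scrambled ones, but only the shRNA 5 difference passed (-0.47 ± 0.10, SE, limma adjusted p = 0.0093, against -0.30 and adjusted p = 0.078 with shRNA 4). The Sin3A shRNA lowered it by 0.21 (limma adjusted p = 0.013), a call lost without Sin3A shRNA replicate 2 (adjusted p = 0.06) or scrambled replicate 1 (0.058). Atf3, an inducible factor of the same family, fell by 0.26 with the Sin3A shRNA (limma adjusted p = 0.014, or 0.051 without Sin3A shRNA replicate 2), and its values of -0.05 with Tet1 shRNA 5 and 0.03 with Tet1 shRNA 4 did not pass. Ddit3, which encodes the CHOP factor linked to cell death under prolonged stress, was not called in any comparison, with differences of -0.27, -0.12 and -0.09 for Tet1 shRNA 5, Tet1 shRNA 4 and the Sin3A shRNA.

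Serine is made from a glycolytic intermediate by Phgdh, Psat1 and Psph in turn, and Shmt1, Shmt2, Mthfd2 and Mthfd1l pass its carbon into the folate cycle. Tet1 shRNA 5 lowered 3 of the 7 (Phgdh, Psat1 and Mthfd2), Tet1 shRNA 4 none (3 at limma's unadjusted p under 0.05), and the Sin3A shRNA 4 (Shmt1, Shmt2, Mthfd2 and Mthfd1l). Psat1 had log2 levels of 10.89, 10.96 and 11.00 with Tet1 shRNA 5, 11.49, 11.35 and 11.34 with Tet1 shRNA 4 and 11.69, 11.49 and 11.74 with scrambled. The 3 groups did not overlap, with shRNA 5 the lowest and shRNA 4 in between, its highest array just under the lowest scrambled one. The difference was -0.70 ± 0.08 with shRNA 5 (SE, limma adjusted p = 0.00041) and -0.25 ± 0.08 with shRNA 4 (adjusted p = 0.077). Phgdh fell by 0.37 with Tet1 shRNA 5 (limma adjusted p = 0.014), and lost the call without scrambled replicate 3 (0.058) or Tet1 shRNA 5 replicate 2 (0.059).

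Shmt2, the mitochondrial enzyme that splits serine into glycine and a one-carbon unit, had 11.59, 11.51 and 11.49 with the Sin3A shRNA and 11.92, 11.81 and 11.85 with scrambled (-0.33 ± 0.06, SE, limma adjusted p = 0.0044). In the Tet1 set its differences were 0.00 with shRNA 5 and 0.10 with shRNA 4, neither past the threshold. Shmt1, the cytosolic form, fell by 0.30 with the Sin3A shRNA (limma adjusted p = 0.0084), and Mthfd1l by 0.36 (adjusted p = 0.0015). For both Shmt genes the Tet1 shRNA 5 effect lay above the Sin3A effect when the difference was tested on all 15 arrays, by 0.50 for Shmt1 (limma adjusted p = 0.00091) and 0.33 for Shmt2 (adjusted p = 0.012). Mthfd2, which oxidises one-carbon units in mitochondria, was lower by 0.36 with both Tet1 shRNA 5 (limma adjusted p = 0.046) and the Sin3A shRNA (adjusted p = 0.0034). The shRNA 5 call for Mthfd2 held without scrambled replicate 2 and was lost when any other array of the Tet1 set was left out (adjusted p = 0.06 to 0.15).

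Aldh18a1, the enzyme that starts proline synthesis from glutamate, had 10.43, 10.58 and 10.38 with the Sin3A shRNA and 10.83, 10.91 and 10.78 with scrambled, with no overlap (-0.38 ± 0.07, SE, limma adjusted p = 0.0059). It did not pass with Tet1 shRNA 5 (-0.30, limma adjusted p = 0.051), and with Tet1 shRNA 4 it was 0.12 (adjusted p = 0.5).

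Of the 6 other amino acid enzymes, Tet1 shRNA 5 lowered Pck2 and Gpt2 and raised Asns, Tet1 shRNA 4 lowered Gpt2 and raised Asns, and the Sin3A shRNA lowered Pck2 and Asns. Pck2, the mitochondrial phosphoenolpyruvate carboxykinase, had 7.81, 7.79 and 7.80 with Tet1 shRNA 5, 8.49, 8.56 and 8.29 with Tet1 shRNA 4 and 8.46, 8.75 and 8.52 with scrambled. Its shRNA 5 arrays lay close together and below all the rest, and shRNA 4 overlapped scrambled. The differences were -0.77 ± 0.09 (SE, limma adjusted p = 0.00054) with shRNA 5 and -0.13 ± 0.09 (adjusted p = 0.47) with shRNA 4. With the Sin3A shRNA Pck2 had 8.64, 8.40 and 8.40, against 9.13, 9.18 and 9.13 with scrambled (-0.67 ± 0.07, SE, limma adjusted p = 0.00065).

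Gpt2, the mitochondrial alanine aminotransferase, was lowered by both Tet1 hairpins and not by the Sin3A shRNA. It had 8.69, 8.56 and 8.69 with Tet1 shRNA 5, 8.95, 8.95 and 8.86 with Tet1 shRNA 4 and 9.28, 9.41 and 9.38 with scrambled, 3 groups that did not overlap. The differences from scrambled were -0.71 ± 0.06 with shRNA 5 (SE, limma adjusted p = 0.00011) and -0.44 ± 0.06 with shRNA 4 (adjusted p = 0.0019). The Sin3A difference was 0.05 (95% interval -0.10 to 0.19, limma adjusted p = 0.65), and both Tet1 effects lay below it, by 0.76 for shRNA 5 (adjusted p = 4.1e-05) and 0.48 for shRNA 4 (adjusted p = 0.0015).

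Asns, asparagine synthetase and a widely used reporter of ATF4 activity, was higher in the Tet1 knockdowns. It had 12.22, 12.22 and 12.26 with Tet1 shRNA 5, 12.41, 12.44 and 12.46 with Tet1 shRNA 4 and 12.07, 12.06 and 12.05 with scrambled, so that both knockdowns lay above scrambled and did not overlap it. The differences were 0.18 ± 0.05 with shRNA 5 (SE, limma adjusted p = 0.049) and 0.37 ± 0.05 with shRNA 4 (adjusted p = 0.0012). In the Sin3A set the order was turned, with 12.09, 12.16 and 12.07 for the Sin3A shRNA and 12.49, 12.50 and 12.39 for scrambled (-0.35 ± 0.05, SE, limma adjusted p = 0.0028). The shRNA 4 call held whichever array was left out, but the shRNA 5 call was lost without any one of the 9 arrays (adjusted p = 0.06 to 0.14). Asns lay at percentile 99.2 of the probe sets of the Tet1 set, among the brightest, as did Slc7a5 (99.2) and Slc7a3 (99), which are described below. Whether such bright probe sets compress differences was not tested. Cth and Cbs, which make cysteine from homocysteine, and Got1, the cytosolic aspartate aminotransferase, were called in no comparison within a set, and the Tet1 shRNA 4 effect on Got1 lay below the Sin3A effect (-0.24, limma adjusted p = 0.039).

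**Figure D2:**
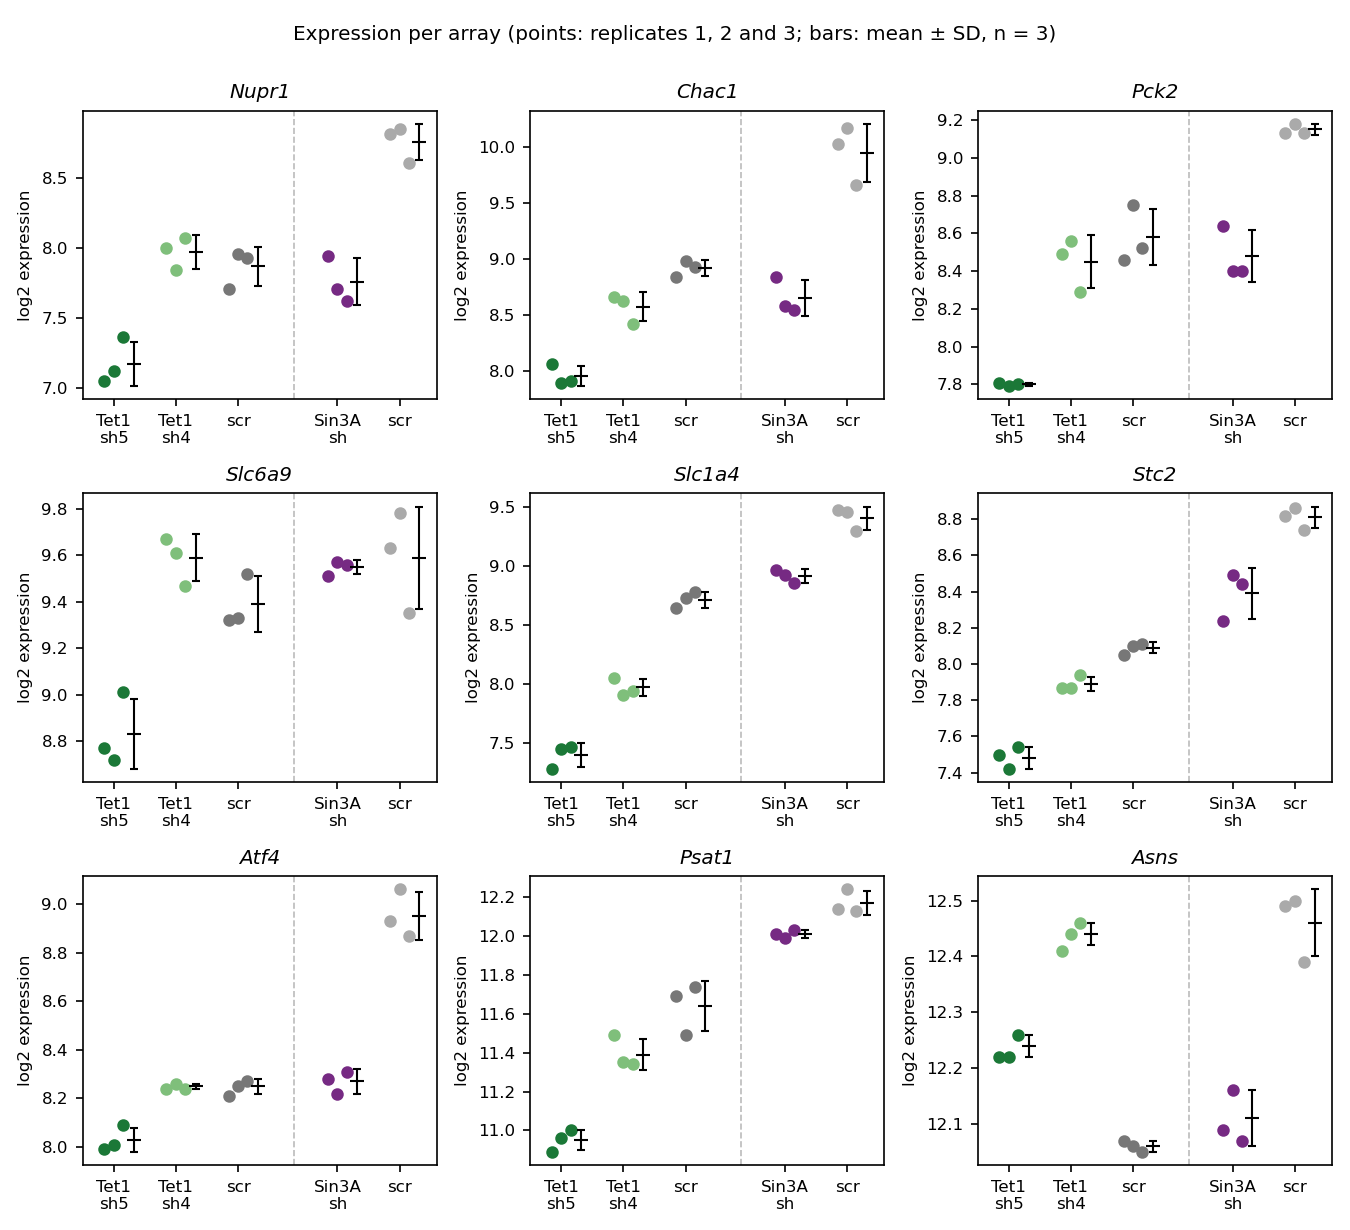
Log2 expression of 9 members on each array (points, replicates 1, 2 and 3) with the mean ± SD of each group (bars, n = 3). Groups run from left to right as Tet1 shRNA 5, Tet1 shRNA 4 and scrambled of the Tet1 set, then, after the dashed line, Sin3A shRNA and scrambled of the Sin3A set. Axes do not start at 0, levels on the left and right of the line are not comparable, and the labels shorten shRNA to sh and scrambled to scr. Tet1 shRNA 5 lies below Tet1 shRNA 4 in every panel, but 6 of the 9 genes shown are those called lower in that contrast. Over all 38 members, 33 of these differences were negative and 5 positive.

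The 9 transporters held both the largest decrease of the Tet1 set and most of the increases. Slc1a4 (ASCT1), a neutral amino acid exchanger that carries serine and alanine, had 7.28, 7.45 and 7.47 with Tet1 shRNA 5, 8.05, 7.91 and 7.94 with Tet1 shRNA 4 and 8.64, 8.73 and 8.78 with scrambled. The groups were stepped and did not overlap. This made it 2.49-fold lower with shRNA 5 (-1.31 ± 0.07, SE, limma adjusted p = 1e-05) and 1.68-fold lower with shRNA 4 (-0.75 ± 0.07, adjusted p = 0.00017). With the Sin3A shRNA it had 8.96, 8.92 and 8.85, against 9.47, 9.45 and 9.29 with scrambled (-0.49 ± 0.07, SE, limma adjusted p = 0.0014). The Tet1 shRNA 5 effect was the larger, by 0.82 on the log2 scale (a difference of -0.82, limma adjusted p = 5.6e-05), while the shRNA 4 effect and the Sin3A effect differed by -0.25 (adjusted p = 0.099).

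Slc6a9 (GlyT1), a glycine transporter, had 8.77, 8.72 and 9.01 with Tet1 shRNA 5, 9.67, 9.61 and 9.47 with Tet1 shRNA 4 and 9.32, 9.33 and 9.52 with scrambled. Only shRNA 5 set its arrays apart (-0.56 ± 0.10, SE, limma adjusted p = 0.0038). The shRNA 4 value was 0.20 (adjusted p = 0.25) and the Sin3A value -0.04 (95% interval -0.28 to 0.19, adjusted p = 0.81). Slc7a11, the cystine and glutamate exchanger whose promoter window holds the motif on both strands, fell by 0.42 with Tet1 shRNA 5 (limma adjusted p = 0.026) and by 0.22 with the Sin3A shRNA (adjusted p = 0.031). It lay at percentile 18.9 of the Tet1 set, so its values rest on a dim signal. Its shRNA 5 call was lost without scrambled replicate 1 (adjusted p = 0.088), scrambled replicate 2 (0.075), Tet1 shRNA 5 replicate 2 (0.1) or replicate 3 (0.067), and its Sin3A call without scrambled replicate 2 (0.084), scrambled replicate 3 (0.059), Sin3A shRNA replicate 2 (0.093) or replicate 3 (0.089).

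The cationic amino acid transporters Slc7a3 and Slc7a1, which import arginine and lysine, and Slc7a5 (LAT1), which imports leucine and other large neutral amino acids, were the transporters that rose. Slc7a3 had 12.25, 12.23 and 12.25 with Tet1 shRNA 5, 12.19, 12.11 and 12.17 with Tet1 shRNA 4 and 11.97, 11.90 and 11.90 with scrambled. Both knockdowns lay above scrambled, by 0.32 ± 0.05 with shRNA 5 (SE, limma adjusted p = 0.0035) and 0.23 ± 0.05 with shRNA 4 (adjusted p = 0.022). The Sin3A shRNA arrays, at 11.95, 11.98 and 12.01, lay below the scrambled ones, at 12.41, 12.29 and 12.33 (-0.36 ± 0.05, SE, limma adjusted p = 0.0021). The effects of Tet1 shRNA 5 and of the Sin3A shRNA on Slc7a3 thus differed by 0.68 (limma adjusted p = 1.5e-05), and those of shRNA 4 and the Sin3A shRNA by 0.59 (adjusted p = 4.3e-05).

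Slc7a1 had 10.02, 9.91 and 10.03 with Tet1 shRNA 5, 10.39, 10.43 and 10.18 with Tet1 shRNA 4 and 9.82, 9.79 and 9.88 with scrambled. It rose by 0.50 ± 0.08 with shRNA 4 (SE, limma adjusted p = 0.002), and its shRNA 5 value of 0.15 did not pass (adjusted p = 0.24). Slc7a5 rose by 0.22 with shRNA 4 (limma adjusted p = 0.027), and had 0.13 with shRNA 5 and 0.15 with the Sin3A shRNA, which did not pass. The shRNA 4 call for Slc7a5 no longer passed without scrambled replicate 1 (adjusted p = 0.079) or Tet1 shRNA 4 replicate 1 (0.1), 2 (0.061) or 3 (0.052), and that for Slc7a3 without scrambled replicate 3 (0.076) or Tet1 shRNA 4 replicate 1 (0.088) or 3 (0.068). Slc38a2, a sodium-coupled neutral amino acid transporter, fell by 0.23 with the Sin3A shRNA (limma adjusted p = 0.025), a call lost without scrambled replicate 1 (0.089), scrambled replicate 2 (0.072), Sin3A shRNA replicate 1 (0.061) or replicate 2 (0.1). Slc3a2, the shared heavy chain of Slc7a5 and Slc7a11, and the glutamine transporter Slc1a5 were called in no comparison.

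Among the 6 effectors, Chac1, Stc2 and Herpud1 fell with both Tet1 shRNA 5 and the Sin3A shRNA. Chac1, an enzyme that breaks down glutathione, had 8.06, 7.89 and 7.91 with Tet1 shRNA 5, 8.66, 8.62 and 8.42 with Tet1 shRNA 4 and 8.84, 8.98 and 8.93 with scrambled. The 3 groups were stepped with no overlap. It was 1.95-fold lower with shRNA 5 (-0.96 ± 0.08, SE, limma adjusted p = 8.2e-05) and 1.27-fold lower with shRNA 4 (-0.35 ± 0.08, adjusted p = 0.02). Its Sin3A shRNA arrays, at 8.84, 8.58 and 8.54, lay below the scrambled arrays, at 10.03, 10.17 and 9.66, and the 2.47-fold drop was the largest among the members in that set (-1.30 ± 0.13, SE, limma adjusted p = 0.0005). The shRNA 4 call was lost without scrambled replicate 2 (adjusted p = 0.052), scrambled replicate 3 (0.069) or Tet1 shRNA 4 replicate 3 (0.068).

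Stc2, a secreted glycoprotein, had 7.5, 7.42 and 7.54 with Tet1 shRNA 5, 7.87, 7.87 and 7.94 with Tet1 shRNA 4 and 8.05, 8.10 and 8.11 with scrambled. Again the groups were stepped, and the shRNA 5 difference passed (-0.60 ± 0.06, SE, limma adjusted p = 0.00016) while the shRNA 4 difference did not (-0.20, adjusted p = 0.057). The Sin3A shRNA lowered Stc2 by 0.42 (limma adjusted p = 0.0059). Herpud1, which helps clear misfolded proteins from the endoplasmic reticulum, fell by 0.33 with Tet1 shRNA 5 (limma adjusted p = 0.027) and by 0.38 with the Sin3A shRNA (adjusted p = 0.0028). The shRNA 5 call for Herpud1 was lost without scrambled replicate 2 (adjusted p = 0.061), scrambled replicate 3 (0.087), or Tet1 shRNA 5 replicate 1 (0.076), 2 (0.095) or 3 (0.068). Ppp1r15a, the phosphatase subunit that reverses eIF2 phosphorylation, the translation repressor gene Eif4ebp1, and the lipoprotein receptor gene Vldlr were called in no comparison.

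Of the 14 decreases with Tet1 shRNA 5, 9 held whichever of the 9 arrays was left out: Trib3, Nupr1, Psat1, Pck2, Gpt2, Slc6a9, Slc1a4, Chac1 and Stc2. Of the 18 Sin3A decreases, 14 held whichever of the 6 arrays was left out. Without replicate 2 of Tet1 shRNA 4 and of scrambled, Tet1 shRNA 5 lowered 13 and raised 2 members, and Tet1 shRNA 4 lowered 3 and raised 3.

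The hairpins against Tet1 differed from each other in few probe sets, and several members were among them. Setting Tet1 shRNA 5 directly against Tet1 shRNA 4, limma called 6 members lower (15.8%) and none higher, where 0.141% of all probe sets were called in either direction, 0.0849% of all probe sets were called lower and 0.0566% higher. In all, 18 probe sets were called lower, so the members made up 33.3% of them. The 6 were Nupr1 (-0.79 ± 0.10, SE, adjusted p = 0.028), Slc6a9 (-0.75 ± 0.10, adjusted p = 0.028), Pck2 (-0.65 ± 0.09, adjusted p = 0.038), Chac1 (-0.61 ± 0.08, adjusted p = 0.028), Slc1a4 (-0.57 ± 0.07, adjusted p = 0.028) and Stc2 (-0.41 ± 0.06, adjusted p = 0.036). In each of the 6 the 3 shRNA 5 arrays lay below the 3 shRNA 4 arrays, which largely follows from their selection by this contrast. Over all members the median of this difference was -0.19 against 0.00 over all probe sets, 33 of 38 values were negative, and 19 members had an unadjusted p under 0.05, all of them lower with shRNA 5. Over all 21212 probe sets, 1836 had such a p, in either direction. In 23 members every shRNA 5 array lay below every shRNA 4 array, and 6.83% of all probe sets did so, while 2 members lay above, against 8.07%.

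These calls sat close to the threshold. With only the 2 groups in the fit, 0 of the 6 passed, with limma adjusted p = 0.0983 for Pck2 and 0.106 for Chac1 at the ends of their range. All 6 were lost without scrambled replicate 3 (adjusted p = 0.054 to 0.069), without Tet1 shRNA 4 replicate 1 (0.14 to 0.21) or 2 (0.073 to 0.13), or without Tet1 shRNA 5 replicate 1 (0.14 to 0.17), 2 (0.17 to 0.22) or 3 (0.067 to 0.17). Without scrambled replicate 1 only Nupr1 passed, without Tet1 shRNA 4 replicate 3 only Chac1 passed, and without scrambled replicate 2 a count of 7 was reached. The Tet1 transcript itself was 0.33 lower on the log2 scale with shRNA 5 than with shRNA 4 (-0.33, limma adjusted p = 0.17), with levels of 9.94, 10.14 and 10.20 for shRNA 5 and 10.43, 10.44 and 10.39 for shRNA 4. Depth of knockdown and other differences between the hairpins cannot be told apart.

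The Tet1 and Sin3A sets share no arrays, so their calls can be set side by side. Sin3a itself was slightly lower with both Tet1 hairpins, as given above, and its part in the shared decreases was not tested. Of the members lowered by Tet1 shRNA 5, 10 of 14 (71.4%) were also lowered by the Sin3A shRNA, which is 55.6% of the 18 Sin3A decreases: Atf4, Trib3, Nupr1, Mthfd2, Pck2, Slc7a11, Slc1a4, Chac1, Stc2 and Herpud1. Over all probe sets, 423 of the 1159 decreases with shRNA 5 (36.5%) were shared, 15.8% of the 2669 Sin3A decreases. These shares start from different bases, as the Sin3A shRNA lowered 47.4% of the members and 12.6% of all probe sets. They therefore do not show that sharing was greater among the members. Psat1, Gpt2, Slc6a9 and Phgdh were lower with shRNA 5 and did not pass with the Sin3A shRNA, and for Psat1, Gpt2 and Slc6a9 the difference between the effects itself passed (-0.54, -0.76 and -0.51, limma adjusted p = 0.0013, 4.1e-05 and 0.024). Slc1a4 was the fourth member with a stronger decrease in the Tet1 shRNA 5 cells. In the other direction, Atf4 was lowered more by the Sin3A shRNA (the shRNA 5 effect minus the Sin3A effect was 0.47, limma adjusted p = 0.00082). The shRNA 5 effect also lay above the Sin3A effect for Asns (0.53, limma adjusted p = 0.0001) and Slc7a3, which were higher with shRNA 5 and lower with the Sin3A shRNA, and for Shmt1 and Shmt2, which were lower with the Sin3A shRNA and did not pass with shRNA 5. In total 5 members passed with a higher and 4 with a lower value in this contrast, against 10.7% and 7.85% of all probe sets, and repeated quantile normalization gave 5 and 7. For Tet1 shRNA 4 against the Sin3A shRNA, 13 passed with a higher and 2 with a lower value, against 10.1% and 8.02% of all probe sets, and Nupr1 (1.10, limma adjusted p = 0.00014) and Chac1 (0.95, adjusted p = 0.00089) had the largest differences.

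**Figure D3:**
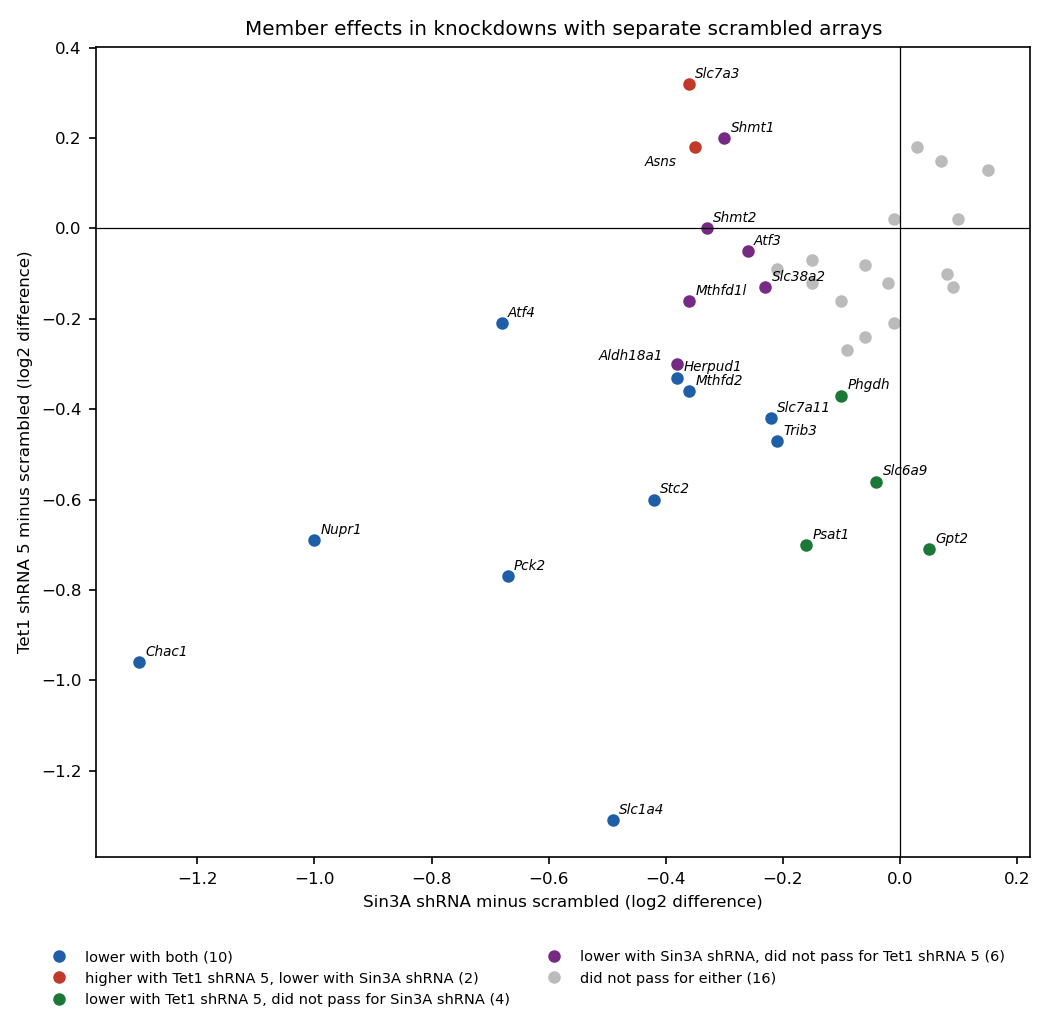
Log2 difference with Tet1 shRNA 5 (vertical axis) against that with the Sin3A shRNA (horizontal axis) for the 38 members, each against the scrambled arrays of its own set. Blue points were lower in both (10), red points higher with Tet1 shRNA 5 and lower with the Sin3A shRNA (2, Asns and Slc7a3), green points lower with Tet1 shRNA 5 without passing for Sin3A (4), purple points lower with the Sin3A shRNA without passing for Tet1 shRNA 5 (6), and grey points passed in neither (16). Chac1 and Nupr1 lie far down on both axes.

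Members with and without the promoter motif both held decreases. Of the 10 members with it, Tet1 shRNA 5 lowered 5 (50%) and the Sin3A shRNA 7 (70%). Of the 23 without it, Tet1 shRNA 5 lowered 9 (39.1%) and the Sin3A shRNA 10 (43.5%). Over all probe sets these shares were 5.46% and 12.6%. Slc1a4, Psat1, Gpt2 and Stc2 fell without the motif in their windows, and Got1, which holds it as printed above, was not called in any knockdown against scrambled.

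Other genes tied to this response were read from lists of non-members. Of all probe sets, 5.46% were called lower with Tet1 shRNA 5, 4.71% with Tet1 shRNA 4 and 12.6% with the Sin3A shRNA. The shares called higher were 8.37%, 6.88% and 12.2% in the same order. The 19 cytosolic transfer RNA synthetases load amino acids onto transfer RNA and include known ATF4 targets. Tet1 shRNA 5 lowered 7 of them (36.8%), Tet1 shRNA 4 lowered 1 (Farsa, -0.31) and the Sin3A shRNA lowered 7 (36.8%), with none higher. The Tet1 shRNA 4 share of 5.26% lay near that of all probe sets. Lars (-0.67 ± 0.11), Sars (-0.50 ± 0.07) and Cars (-0.50 ± 0.07) fell most under Tet1 shRNA 5 (SE, limma adjusted p = 0.0028, 0.00087 and 0.001). Aars (-0.36), Nars (-0.32) and Sars (-0.29) fell most with the Sin3A shRNA, where the count was 4 without Sin3A shRNA replicate 2. The Farsa call no longer passed without scrambled replicate 3 (adjusted p = 0.058) or Tet1 shRNA 4 replicate 3 (0.054). Of 11 further genes linked to ATF4 (Sesn2, Ddit4, Niban1 and others), Tet1 shRNA 5 lowered 3 (27.3%) and Tet1 shRNA 4 lowered 3 (27.3%) and raised 1 (9.09%). The Sin3A shRNA lowered 2 (18.2%). The 9.09% and the 18.2% lay not far from the shares of all probe sets. Ddit4, an inhibitor of mTORC1 signalling, had -0.41 with shRNA 5 and -0.69 with shRNA 4, and the shRNA 5 call no longer passed without scrambled replicate 3 (adjusted p = 0.073) or Tet1 shRNA 5 replicate 2 (0.076) or 3 (0.051). Without scrambled replicate 3, Tet1 shRNA 5 replicate 2 or Tet1 shRNA 5 replicate 3, the shRNA 5 count was 1.

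Upstream of ATF4, the eIF2 pathway genes were called in both directions: of 13, Tet1 shRNA 5 lowered 1 and raised 2, Tet1 shRNA 4 lowered 1, and the Sin3A shRNA lowered 4 and raised 2, beside the 13.8%, 11.6% and 24.8% of all probe sets called in either direction in these comparisons. Impact fell in all 3 knockdowns against scrambled, and encodes an inhibitor of the amino acid sensing kinase GCN2. Its log2 level was 9.87, 9.93 and 9.88 with Tet1 shRNA 5, 9.75, 9.78 and 9.76 with Tet1 shRNA 4 and 10.57, 10.48 and 10.54 with scrambled (-0.64 and -0.77, limma adjusted p = 8.5e-05 and 2.9e-05). With the Sin3A shRNA it had 10.42, 10.43 and 10.47, against 11.03, 11.03 and 11.12 with scrambled (-0.62, limma adjusted p = 0.00019). Eif2ak4, which encodes GCN2 itself, rose by 0.52 with the Sin3A shRNA (limma adjusted p = 0.0018), and Eif2ak2, the kinase that senses double-stranded RNA, by 0.66 (adjusted p = 0.0006). The 2 increases with Tet1 shRNA 5, Eif2ak1 (0.30) and Eif2b3 (0.22), were both lost without scrambled replicate 3 (adjusted p = 0.1 and 0.09) or Tet1 shRNA 5 replicate 2 (0.12 and 0.11). Eif2ak1 was also lost without scrambled replicate 2 (0.076) or Tet1 shRNA 5 replicate 3 (0.088), and Eif2b3 without Tet1 shRNA 5 replicate 1 (0.07).

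Of 15 further folate and glycine genes, Tet1 shRNA 5 lowered 3 (20%) and raised 1 (6.67%), against 5.46% and 8.37% of all probe sets. Tet1 shRNA 4 lowered 2 (13.3%) and raised 1 (6.67%), against 4.71% and 6.88%. The Sin3A shRNA lowered 3 (20%) and raised 5 (33.3%), against 12.6% and 12.2%. The share raised by either Tet1 hairpin thus lay near that of all probe sets. Gldc, the glycine decarboxylase of the glycine cleavage system, fell by 0.89 with Tet1 shRNA 5 (limma adjusted p = 4e-05) and by 0.84 with Tet1 shRNA 4 (adjusted p = 4.5e-05). Mtr, methionine synthase, rose in all 3 knockdowns, by 0.43 with Tet1 shRNA 5, 0.49 with Tet1 shRNA 4 and 0.46 with the Sin3A shRNA (limma adjusted p = 0.012, 0.0075 and 0.0014). The shRNA 4 decrease of Amt, the aminomethyltransferase that works with Gldc (-0.23), no longer passed without scrambled replicate 1 (adjusted p = 0.064) or 3 (0.053) or Tet1 shRNA 4 replicate 1 (0.085) or 2 (0.061).

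Genes of neighbouring stress programmes were read beside the share of all probe sets called higher, 8.37% with Tet1 shRNA 5, 6.88% with Tet1 shRNA 4 and 12.2% with the Sin3A shRNA. Of 18 genes of the XBP1 and ATF6 branches of the unfolded protein response, Tet1 shRNA 5 raised 5 and lowered 1, Tet1 shRNA 4 raised 1 and lowered 1, near the share of all probe sets, and the Sin3A shRNA raised 8 and lowered none (1 lower at limma's unadjusted p under 0.05). Xbp1 (0.65 ± 0.06), Ern1, the sensor that splices its transcript (0.40 ± 0.07), and Creld2 (0.32 ± 0.05) rose with the Sin3A shRNA (SE, limma adjusted p = 0.00036, 0.0037 and 0.0022), and Sdf2l1, a chaperone partner, rose with Tet1 shRNA 5 (0.61 ± 0.05, adjusted p = 0.0001). The count of 8 was 5 without scrambled replicate 1, 2 or 3 of the Sin3A set, and the count of 5 was 3 without Tet1 shRNA 5 replicate 2. Of 11 genes of the oxidative stress pathway of NRF2 (its own gene Nfe2l2 and Keap1 included), Tet1 shRNA 5 raised 3 and Tet1 shRNA 4 raised 1. The Tet1 shRNA 4 count was again near that share, and the Sin3A shRNA raised 4 and lowered 1. Nqo1, a quinone reductase, was among those raised by Tet1 shRNA 5 (0.47, limma adjusted p = 0.0015), and Gclc, which makes the precursor of glutathione, among those raised by the Sin3A shRNA (0.40, adjusted p = 0.0022). None of these 6 lists held a call between the Tet1 hairpins, where limma's unadjusted p was under 0.05 for 9 synthetases, 5 XBP1 and ATF6 genes, 4 NRF2 genes and 2 genes in each of the other lists. Over all 21212 probe sets it was under 0.05 for 1836.

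**Figure D4:**
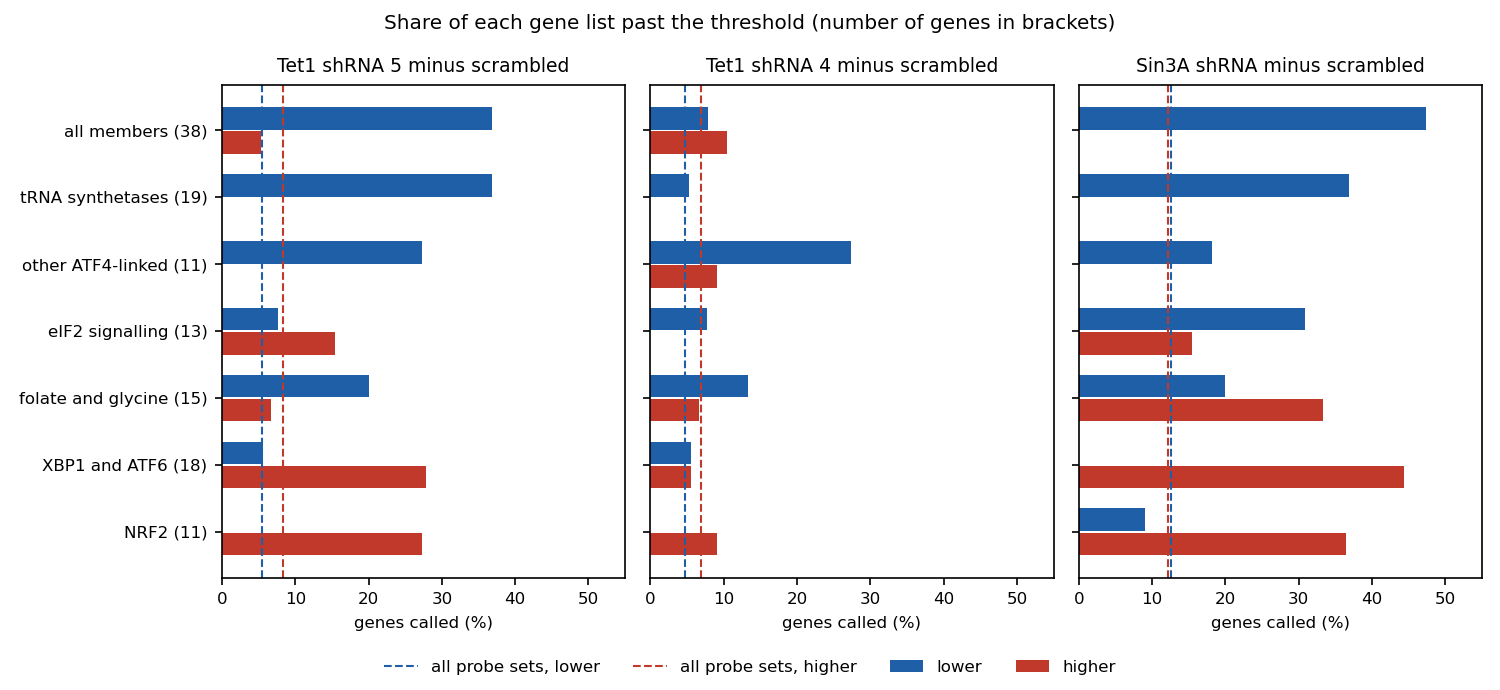
Share of each gene list called lower (blue bars) and higher (red bars) in 3 comparisons, in percent, with the number of genes in brackets. Dashed lines mark the share of all probe sets called in each direction. The 38 members and the 19 transfer RNA synthetases have lower shares of 36.8% each with Tet1 shRNA 5, and the XBP1 and ATF6 list has its longest bar on the higher side with the Sin3A shRNA.

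Markers of other cell types moved in a few genes beside these results. Of 9 fibroblast markers, Thy1 was higher with Tet1 shRNA 5 (0.81) and Tet1 shRNA 4 (0.82), while Thy1 (-0.23) and Pdgfrb (-0.58) were lower with the Sin3A shRNA, and the mean log2 level of the list was 6.13 to 6.25 with Tet1 shRNA 5, 6.15 to 6.28 with Tet1 shRNA 4 and 6.09 to 6.26 with scrambled. Of 7 primitive endoderm markers, Sox7 was higher with Tet1 shRNA 5 (0.83), Tet1 shRNA 4 (0.80) and the Sin3A shRNA (0.45), and Dab2 was lower with Tet1 shRNA 5 (-0.41) and the Sin3A shRNA (-0.86), with list means of 6.77 to 6.86, 6.79 to 6.87 and 6.57 to 6.79 in the Tet1 set in the same order of groups. Of 6 trophectoderm markers, Tet1 shRNA 5 and Tet1 shRNA 4 lowered Tfap2c and Krt7 and raised Gata3, and the Sin3A shRNA lowered all 3 of these, with list means of 6.61 to 6.69, 6.51 to 6.61 and 6.61 to 6.79 in the Tet1 set. In the Sin3A set the list means were 7.12 to 7.30 with the Sin3A shRNA and 7.28 to 7.38 with scrambled for fibroblast markers, 7.75 to 7.77 and 7.77 to 7.82 for primitive endoderm, and 7.68 to 7.78 and 7.97 to 8.04 for trophectoderm. Of the 9 embryonic stem cell markers, both Tet1 hairpins raised Klf4 and Tdgf1, and the Sin3A shRNA raised Klf4 (0.41) and lowered Nanog (-0.27). The part of these shifts in the members' values was not tested.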

How the data were processed

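Total RNA was labelled with a whole transcript kit and hybridised to 1-colour Affymetrix arrays, per the labels. The authors deposited 1 table of log2 expression values for 21212 probe sets, and affy, RMA and limma were used, per the submitters' processing notes, with no version, order or settings given. In the Tet1 set 49.1% of probe sets held tied values (15 of the 38 members), and in the Sin3A set 0. The 2 sets appear to have been normalized separately, so tests were run within a set, or on differences of within-set differences. Groups came from the sample titles. Names came from the platform annotation (1 symbol for 18786 probe sets, several for 6, none for 2420), and where a gene had several probe sets the one with the highest mean was used.

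Linear models were fitted in limma 3.58.1 (R 4.3.3, lmFit and eBayes, two-sided) to 9 arrays of the Tet1 set, 6 of the Sin3A set and all 15, with Benjamini-Hochberg adjustment over all 21212 probe sets and a threshold of 0.05. The members and lists were chosen with earlier results of these data known. All members are named, and from each other list up to 3 called genes per comparison by size. Of the 128 symbols of those lists 120 matched. Precision is limited by 3 arrays per group: 95% intervals of the members reached 0.11 to 0.26 to either side in the Tet1 set and 0.11 to 0.31 in the Sin3A set. Same-numbered Tet1 shRNA 4 and scrambled arrays deviated together (r = 0.274, 0.517 and 0.171). Scrambled replicate 1 did so about as much with Tet1 shRNA 4 replicate 3 (0.281), and scrambled replicate 3 with Tet1 shRNA 4 replicate 1 (0.162). Only the replicate 2 pair thus stood apart, and the values do not show that the numbers pair the other arrays. In other pairs of groups, same-numbered arrays did not deviate together. In data simulated on these samples, limma recovered 58% of log2 changes of 0.5 and 95% of 1.0 for Tet1 shRNA 5 (74% and 95% for the Sin3A shRNA). Each share is of 100 changed probe sets among 21212, with 8 false calls in either simulation. Noise was drawn independently for each array, without tied values or deviations shared between arrays. Alternatives tried were repeated quantile normalization, median centring, a filter on dim probe sets, a trended robust prior, a replicate block, a fit of only the 2 groups compared, and leaving out arrays. Promoter windows came from RefSeq (GRCm38.p6), and 33 members were in that table.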

Additional observations from a re-analysis of the deposited data

Results flagged for a closer look

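The effects of the Tet1 hairpins differed for 6 members when the difference itself was tested with limma: Nupr1 (Tet1 shRNA 5 minus Tet1 shRNA 4, -0.79 on the log2 scale), Slc6a9 (-0.75), Pck2 (-0.65), Chac1 (-0.61), Slc1a4 (-0.57) and Stc2 (-0.41). Adjusted p-values were 0.028 to 0.038. Each of the 6 was lower in all 3 shRNA 5 arrays than in any shRNA 4 array, which largely follows from their selection by this contrast. Every call was lost when at least 1 single array was left out, or when only the arrays of the 2 hairpins entered the fit. Slc1a4 and Chac1 were called lower with both hairpins against scrambled, and the other 4 with Tet1 shRNA 5.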

How the results depend on the processing

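With the replicate number as a block, members lower with Tet1 shRNA 5 than with Tet1 shRNA 4 numbered 0 against 6 in the fit without it, members higher with Tet1 shRNA 5 numbered 1 against 2, and Tet1 shRNA 4 in a fit of the 2 groups raised 2 against 4, an alternative chosen after seeing the data. Same-numbered Tet1 shRNA 5 arrays did not deviate with scrambled (r = -0.14, -0.287 and 0.0361) or with Tet1 shRNA 4 (-0.0519, -0.237 and -0.0645), nor did Sin3A shRNA arrays with scrambled (-0.00472, 0.0212 and -0.274), so there the numbers do not pair the arrays. With the block, 12 of the 14 decreases with Tet1 shRNA 5 and 16 of the 18 with the Sin3A shRNA still passed. With only the 2 groups compared, Tet1 shRNA 4 lowered 3 and raised 2 members, Tet1 shRNA 5 lowered 11 and raised 1, and the contrast between hairpins held 0. In that fit the Tet1 shRNA 5 decreases of Atf4 (limma adjusted p = 0.0601), Mthfd2 (0.09), Slc7a11 (0.0676) and Herpud1 (0.0544) no longer passed. Repeated quantile normalization gave 5 members lower with Tet1 shRNA 4 (44.4% of its calls higher, against 57.1% as deposited), 1 higher with Tet1 shRNA 5 and 7 lower in Tet1 shRNA 5 minus Sin3A effects (41.7% of calls higher, against 55.6%). Median centring gave 5 lower with Tet1 shRNA 4 (44.4% higher) and 1 higher with Tet1 shRNA 5. Only probe sets above the median level gave 7 lower with Tet1 shRNA 4, 1 higher with the Sin3A shRNA and a median of -0.13 for Tet1 shRNA 5, over fewer members. A trended, robust prior gave 5 lower with Tet1 shRNA 4 and 2 higher with the Sin3A shRNA. With Tet1 shRNA 4, lower calls thus outnumbered the 4 higher ones under these 4 alternatives. The cause of these shifts was not tested. Without both replicate 2 arrays the contrast between hairpins held 0 calls and a median of -0.15. Leaving out single arrays gave 2 to 4 higher and 2 to 4 lower members with Tet1 shRNA 4, 1 higher and 10 to 14 lower with Tet1 shRNA 5 (median -0.19 to -0.14), 0 to 7 lower between hairpins (median -0.21 to -0.15) and 14 to 17 lower with the Sin3A shRNA (median -0.19 to -0.17). Over single members, 2220 values kept their side of the threshold, called or not, 48 gained a call and 143 lost one. Direction was not compared for values called in neither fit. With 3 arrays per group, changes near 0.2 on the log2 scale passed for some members only. In the simulation, limma recovered 58% of changes of 0.5 for Tet1 shRNA 5 and 74% for the Sin3A shRNA. A value near 0.2 that did not pass therefore does not show that there was no change.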
